A study of Mus musculus with 3 samples.

Results

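The cells described here are the osteoblasts of the mouse cochlea at postnatal day 7 (P7). They were chosen by their transcripts: of 7262 P7 cells that passed the quality filters, 351 (4.83%, exact 95% binomial interval 4.35 to 5.35) drew at least 1% of their unique molecular identifiers (UMIs) from Bglap, Bglap2 and Ibsp and had no UMI of Cdh5, Epcam or Ptprc. The whole series holds 13637 such filtered cells from 3 droplet libraries. All libraries came from whole cochleae of wild-type C57BL/6J mice, which were digested with papain and thermolysin before debris was gated out by cell sorting: 1 library at P7 and 2 at embryonic day 15 (E15). The labels do not say how many animals gave each library, nor which cochlear regions or how much of the bony capsule were kept. The osteoblasts were set beside the other 5279 P7 cells with at least 3 UMIs of Col1a2, a mixed set of connective tissue and other cells called comparison cells below. With 1 library at P7 there is no replicate and no test between these cells. Differences are ratios of CPM, the UMI counts of the summed cells scaled to a fixed total so that groups of unequal depth can be set side by side, and their 95% intervals cover counting error only.

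Osteoblasts build bone. They secrete a matrix of type I collagen and noncollagenous proteins, supply phosphate and remove the pyrophosphate that blocks mineral, and some become osteocytes buried in that matrix. The transcription factors Runx2 and Sp7 drive the lineage, with signals from the BMP, Wnt and parathyroid hormone pathways. In the inner ear, bone forms the otic capsule around the cochlea and the core, or modiolus, in which the spiral ganglion lies.

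Osteocalcin (Bglap and Bglap2) and bone sialoprotein (Ibsp), both secreted proteins of mineralizing bone, chose the cells. Their values are therefore a description. In GRCm38 the mouse osteocalcin genes lie side by side on the minus strand of chromosome 3: Bglap at chr3:88383501-88384464, Bglap2 at chr3:88377736-88378699 and Bglap3 at chr3:88368616-88372743. Ibsp lies on the plus strand at chr5:104299171-104311469. The coding sequences of the osteocalcin copies, from GENCODE M21 transcripts, are shown because their likeness limits how 3' reads can be assigned. Capitals in Bglap and Bglap2 mark the 4 of 288 positions at which these differ, and capitals in Bglap3 mark its 13 differences from Bglap.
Bglap: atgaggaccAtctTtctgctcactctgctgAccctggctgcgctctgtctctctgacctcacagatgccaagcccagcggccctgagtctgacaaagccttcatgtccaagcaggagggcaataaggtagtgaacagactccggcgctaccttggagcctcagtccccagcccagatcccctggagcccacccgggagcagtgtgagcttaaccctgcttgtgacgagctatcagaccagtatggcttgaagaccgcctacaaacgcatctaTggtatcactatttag
Bglap2: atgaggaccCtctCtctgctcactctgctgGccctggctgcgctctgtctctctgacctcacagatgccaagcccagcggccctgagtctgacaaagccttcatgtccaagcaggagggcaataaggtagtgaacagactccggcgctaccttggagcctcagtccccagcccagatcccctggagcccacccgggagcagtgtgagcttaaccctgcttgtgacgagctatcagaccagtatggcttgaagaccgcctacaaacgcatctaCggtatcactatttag
Bglap3: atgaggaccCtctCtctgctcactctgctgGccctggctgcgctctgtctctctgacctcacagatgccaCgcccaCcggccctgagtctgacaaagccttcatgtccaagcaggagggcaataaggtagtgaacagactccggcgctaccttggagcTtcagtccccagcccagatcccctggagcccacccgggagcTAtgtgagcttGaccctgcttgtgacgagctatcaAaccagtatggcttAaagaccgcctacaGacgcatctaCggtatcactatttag
Bglap and Bglap2 were 98.6% identical over the coding sequence and 99.5% over the last 200 bases of the transcript, where 3' reads fall. Bglap3 was 95.5% identical to Bglap over the coding sequence and 97.0% over those last bases. A read that covers no differing base cannot be given to 1 copy, so the split between copies is uncertain.

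The 250 bases before the RefSeq start of Bglap (GRCm38.p6, chr3:88384467-88384716, minus strand) are shown because Runx2 is known to act at this promoter. The core ACCACA of the Runx2 site, searched on both strands (reverse TGTGGT), is in capitals.
Bglap promoter: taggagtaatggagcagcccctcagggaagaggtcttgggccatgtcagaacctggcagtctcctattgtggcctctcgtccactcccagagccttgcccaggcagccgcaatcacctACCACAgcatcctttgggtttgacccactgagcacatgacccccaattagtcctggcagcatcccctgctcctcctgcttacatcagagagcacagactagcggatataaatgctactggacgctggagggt
ACCACA begins 132 bases before the start. It was present in 14.0% of all 32851 promoter windows of this length. Counted per gene, over any window of the gene, it was present in 15.9% of all 27025 genes with a promoter entry. The share was 12.7% of the 10613 such genes measured and 15.2% of the 446 that were higher in osteoblasts. Those 446 include genes that chose the cells, such as Bglap. The longer AACCACA was absent from the Bglap window and present in 4.40% of all windows. The Ibsp and Ifitm5 windows held neither run of letters.

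Bglap was at 27031 CPM in osteoblasts and 356 CPM in comparison cells, Bglap2 at 16957 against 218 CPM, and Ibsp at 35002 against 572 CPM. Together these transcripts made up 7.90% of all osteoblast UMIs and 0.115% of those of comparison cells. Among osteoblasts the share ran from 1.00% to 31.7% of a cell's UMIs, with a median of 4.28%. Of the 351 cells, 25 had no UMI of Bglap or Bglap2 and were thus chosen on Ibsp alone, while 1 had no UMI of Ibsp. More UMIs of Ibsp than of Bglap and Bglap2 together were found in 188 cells, and in 70 of the 86 cells with a share of 1 to 2%. The 20 cells just inside the limit (1 to 1.2%) had a median of 1.08%, and the 30 cells just outside it (0.8 to 1%) had a median of 0.902%. On both sides of the limit the cells carried other bone genes: Sp7 was at 233 CPM just inside and 166 CPM just outside, and Smpd3 at 3843 and 3537 CPM. The limit thus divides a continuous range.

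**Figure D1:**
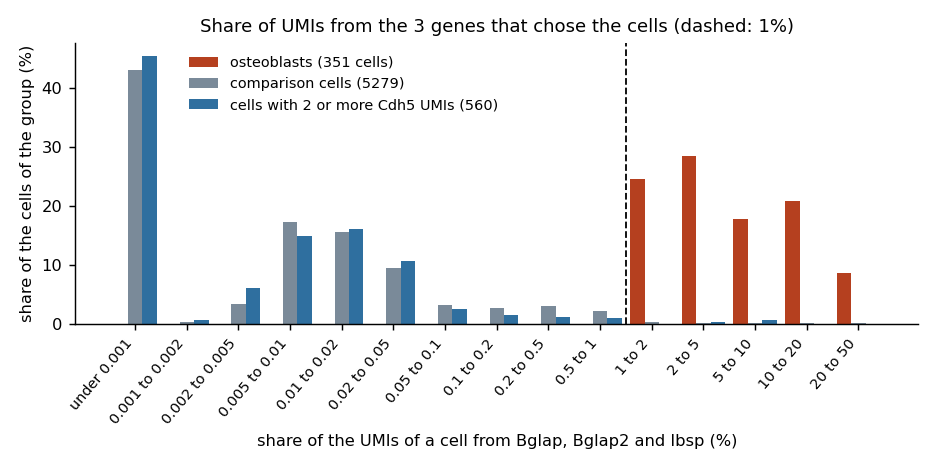
Share of each cell's UMIs from Bglap, Bglap2 and Ibsp (x axis, percent, unequal bins) against the share of each group's cells (y axis, percent). Osteoblasts lie at or above 1% by rule and spread up to 31.7%, while the comparison cells and the 560 cells with at least 2 Cdh5 UMIs lie mostly below 0.05%.

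Bone transcripts outside bone cells give the background. In the 560 P7 cells with at least 2 UMIs of Cdh5, an endothelial cadherin, the median share of the rule genes was 0.00418%, and Ibsp still had a UMI in 38.9% of these cells (median depth 12343.5 UMIs) against 99.7% of osteoblasts (13361 UMIs). In the comparison cells (11660 UMIs) 90.4% of the rule-gene UMIs sat in the 304 cells with at least 0.2%. Of these, 36 reached 1% and were kept out of the osteoblasts by a UMI of Cdh5, Epcam or Ptprc, which left them in the comparison. No osteoblast barcode recurred in an E15 library, and library pairs shared 3 to 6 barcodes.

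Sp7 and Ifitm5 were not used to choose the cells and checked the label. Sp7, the zinc finger factor that commits cells to the osteoblast lineage (chr15:102356606-102367182), was at 297 CPM in osteoblasts and 22.7 CPM in comparison cells, a ratio of 13.1 (12.2 to 14.1). A UMI of Sp7 was found in 84.6% of osteoblasts, 15.6% of comparison cells and 10.7% of the Cdh5 cells. Per osteoblast, Sp7 ran from 0 through a median of 248.6 to 2227 CPM. Ifitm5, a membrane protein of mineralizing osteoblasts (chr7:140948958-140950291), was at 2311 against 45.1 CPM, a ratio of 51.2 (49.2 to 53.3), with a median of 1379 and a maximum of 8755 CPM per cell. It had a UMI in 85.8% of osteoblasts, 7.22% of comparison cells and 7.14% of the Cdh5 cells. All 5 markers were detected together in 256 of the 351 cells and at least 3 of them in 329. The 22 cells with neither Sp7 nor Ifitm5 were mostly near the limit: 15 of them had 1 to 2% of UMIs from the rule genes.

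Markers of other cell types were compared with the 4309 comparison cells that also had no UMI of Cdh5, Epcam or Ptprc, since the rule itself lowers such markers in osteoblasts. Endothelial, immune and epithelial markers summed to 29.9, 19.1 and 15.2 CPM in osteoblasts and to 418, 37.0 and 33.9 CPM in those cells (454, 107 and 284 CPM in all comparison cells). Cdh5, Ptprc and Epcam are at 0 by rule. The fibrocyte list, with genes of the spiral ligament and limbus, summed to 6445 CPM in osteoblasts against 23778 CPM in all comparison cells. Otos and Otor together lay above the comparison cells' median in 33 of the 351 osteoblasts, 19 of them in the 1 to 2% range. Predicted doublets made up 5.13% of osteoblasts and 6.27% of comparison cells.

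Among 14290 genes with at least 50 UMIs over both sums and not used to choose cells, 625 (4.37%) were at least 2-fold higher in osteoblasts and 3580 (25.1%) at least 2-fold lower. The median log2 ratio over all these genes was -0.21, and -0.045 with TMM scaling. The minimum of 50 UMIs leaves 3.25 expected osteoblast UMIs for an unchanged gene, so low genes pass the fold by counting noise. With an interval that also excludes 1, 615 genes (4.30%) were higher and 3045 (21.3%) lower. Since the cells were chosen on UMIs of this same library, the counts of list genes below are descriptions, given beside these shares.

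The transcription factors of bone were for the most part higher in osteoblasts. Of 15 factors measured, 9 were at least 2-fold higher, none was lower and the median log2 ratio was 2.05. Runx2, the factor at the head of the lineage, was at 315 CPM in osteoblasts and 58.1 CPM in comparison cells, a ratio of 5.42 (5.11 to 5.75), with a UMI in 88.3% and 20.8% of cells. The Dlx homeobox genes were among the higher ones. Dlx3 was at 20.8 against 0.536 CPM (ratio 38.8, 26.4 to 58.2), Dlx6 at 89.2 against 7.44 CPM (ratio 11.99) and Dlx5 at 545 against 68.9 CPM (ratio 7.90). Mef2c, a MADS-box factor known for controlling Sost in bone, was at 1415 against 102 CPM (ratio 13.8, 13.3 to 14.3). Creb3l1, which drives secretory and collagen genes, had a ratio of 4.13, and Cbfb, the partner subunit of Runx factors, of 2.48. Twist1, which restrains Runx2, was at 211 against 128 CPM (ratio 1.64), and Atf4 at 143 against 135 CPM (ratio 1.06). Msx2 had 5 osteoblast UMIs and a ratio of 1.14 (0.358 to 2.80), and Msx1 had 2 UMIs and fell under the minimum of 50 UMIs.

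**Figure D2:**
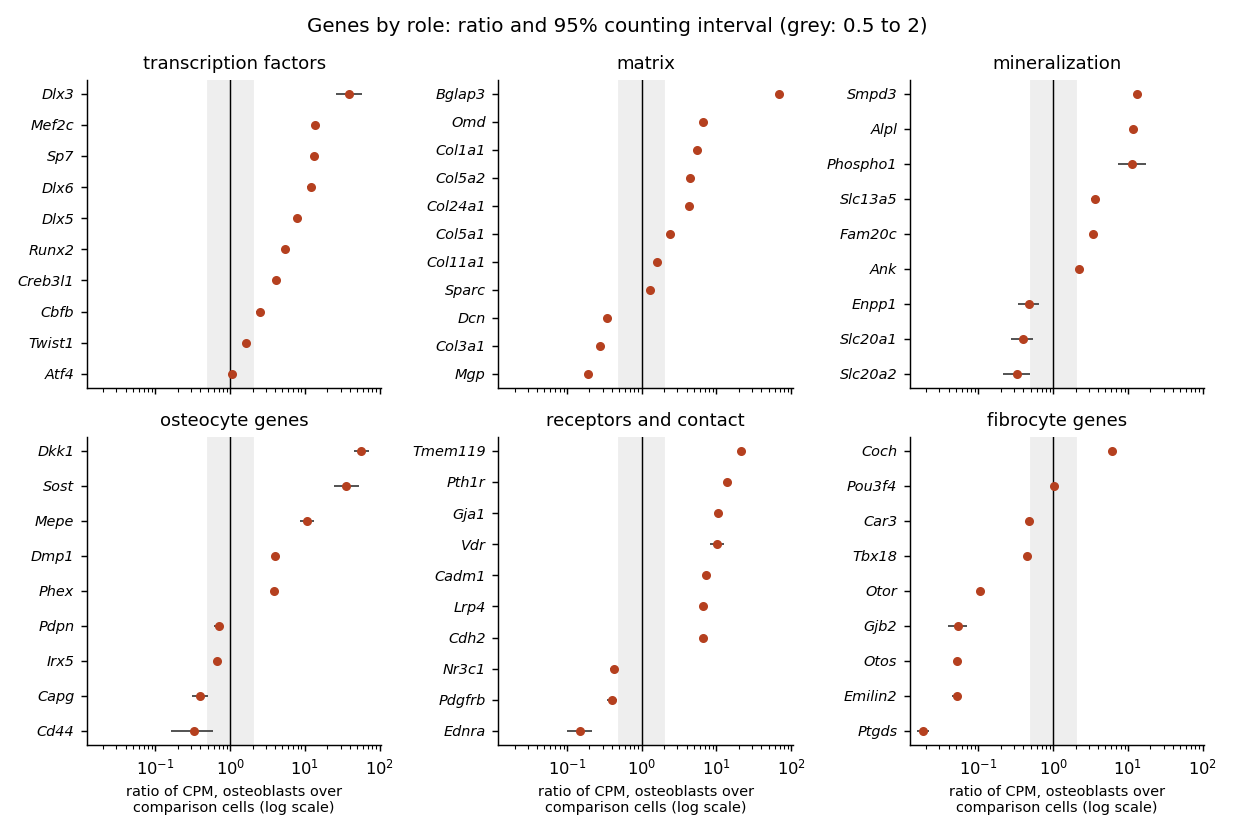
Ratio of CPM in the 351 osteoblasts over the 5279 comparison cells (x axis, log scale) for genes grouped by role. Points are ratios, bars are 95% counting intervals and the grey band spans 0.5 to 2; most transcription factor ratios lie between 2.48 and 38.8, and fibrocyte genes other than Coch and Pou3f4 lie below the band.

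The matrix genes split. Of 22 measured, 9 were at least 2-fold higher and 7 at least 2-fold lower (median log2 ratio 0.37). Bglap3, the osteocalcin copy outside the rule, was at 822 against 11.8 CPM (ratio 69.7, 64.6 to 75.2), subject to the read assignment above. Omd, a small proteoglycan of bone that binds mineral, was at 204 against 30.6 CPM (ratio 6.68). The fibrillar chains Col5a2 (729 against 165 CPM), Col24a1 (109 against 25.4 CPM) and Col5a1 (128 against 53.6 CPM) had ratios of 4.41, 4.30 and 2.39. Sparc, the calcium-binding osteonectin, was abundant in both groups at 6226 and 4766 CPM (ratio 1.31). The lower ones were Col3a1, Fmod, Postn, Mgp, Dcn, Col12a1 and Ogn, of which Col12a1 moved inside the fold with TMM scaling (ratio 0.476, then 0.534). Lum and Bgn, also proteoglycans, lay within 2-fold. Col3a1, the type III collagen, was at 246 against 877 CPM, 3.57-fold lower. Mgp, an inhibitor of calcification, was at 303 against 1572 CPM, 5.18-fold lower (4.92 to 5.46). Dcn, the proteoglycan decorin, was at 847 against 2434 CPM, 2.87-fold lower, and Ogn, another small proteoglycan, was at 25.6 against 156 CPM.

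The chains of type I collagen differed in how they were spread over the cells. Col1a1 was at 2658 CPM in osteoblasts and 490 CPM in comparison cells, a ratio of 5.42 (5.31 to 5.53). Col1a2, which the comparison cells were chosen on, was at 4556 and 3975 CPM. Col1a2 had a UMI in 99.1% of osteoblasts, whereas 172 of the 351 (49.0%) had no UMI of Col1a1. The Col1a1 UMIs were concentrated: 21 cells held 50% of them, while 61 cells held 50% of the Col1a2 UMIs. Per osteoblast, Col1a1 had a median of 41.3, an upper quartile of 2771 and a maximum of 40224 CPM. The number of Col1a1 UMIs per Col1a2 UMI was 0.583 in osteoblasts, 0.123 in comparison cells and 0.0992 and 0.142 in the Col1a2 cells of the E15 libraries. Spp1, the phosphoprotein osteopontin, rested on few cells. It was at 1032 against 267 CPM (ratio 3.87), yet had a UMI in 20.8% of osteoblasts and 30.3% of comparison cells. The 4 highest osteoblasts held 1564, 809, 732 and 708 of its 4964 UMIs. Without them Spp1 was at 243 CPM and its ratio was 0.913, so the ratio above 1 rested on those 4 cells.

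Mineralization genes went both ways. Of 12 measured, 8 were at least 2-fold higher and 4 at least 2-fold lower, Mgp among them (median log2 ratio 1.80). Alpl, the alkaline phosphatase that cleaves pyrophosphate, was at 757 against 65.2 CPM (ratio 11.6, 11.1 to 12.1). Smpd3, a sphingomyelinase required for normal bone mineral, was at 5686 against 434 CPM (ratio 13.1, 12.9 to 13.3), with a median of 5610 and a maximum of 19828 CPM per cell. Phospho1, the phosphatase that frees phosphate inside matrix vesicles, was low but had a ratio of 11.4 (8.94 against 0.782 CPM, 7.48 to 17.4). Phex, an endopeptidase that protects mineralization, was at 302 against 77.6 CPM (ratio 3.89). Fam20c, the kinase of secreted phosphoproteins, had a ratio of 3.40, Slc13a5, a citrate carrier, of 3.59, and Ank, which exports pyrophosphate, of 2.22. Enpp1, which makes pyrophosphate, was at 8.53 against 18.1 CPM (ratio 0.472, and 0.529 with TMM scaling, inside the fold). The phosphate carriers were also lower: Slc20a1 at 7.90 against 20.3 CPM and Slc20a2 at 5.41 against 16.4 CPM. Mmp13, a collagenase, had 58 UMIs in 2.56% of osteoblasts, and 1 cell held 31 of them.

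The genes of collagen folding, modification and export were mostly within 2-fold. Of 33 measured, 7 were at least 2-fold higher and 3 lower (median log2 ratio 0.65), and with TMM scaling 12 were higher and 2 lower. Loxl2, a collagen cross-linking oxidase, was at 46.2 against 9.60 CPM (ratio 4.81), and P4ha1, a prolyl hydroxylase subunit, at 220 against 99.05 CPM (ratio 2.22). Pcolce, which speeds the trimming of procollagen, was at 225 against 103 CPM (ratio 2.19). Loxl1, a related oxidase linked to elastic fibres, was at 18.7 against 131 CPM, 7.00-fold lower. Serpinh1, the collagen chaperone HSP47, had a ratio of 1.33 (1417 against 1066 CPM) and P3h1 of 1.81. Among 20 measured genes mutated in brittle bone disease, 4 were at least 2-fold higher (Creb3l1, Ifitm5, Col1a1 and Sp7) and 1 was lower, Fam46a at 8.94 against 69.9 CPM. With TMM scaling 8 were higher. All 16 genes of the secretory stress list lay within 2-fold (median log2 ratio 0.20). Its nearest to the limit was Manf, a secreted stress factor, at 593 against 301 CPM (ratio 1.97, and 2.21 with TMM scaling), and the chaperone Hspa5 was at 797 against 772 CPM.

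Osteocyte genes were present in part. Of 9 measured, 5 were at least 2-fold higher and 2 lower (median log2 ratio 1.96). Dmp1, a matrix phosphoprotein of early osteocytes, was at 525 against 132 CPM (ratio 3.99, 3.81 to 4.17), with a UMI in 46.4% of osteoblasts and 26.9% of comparison cells. Mepe, another phosphoprotein of this family, was at 36.0 against 3.37 CPM (ratio 10.7). Dkk1, a Wnt inhibitor, was at 79.0 against 1.39 CPM (ratio 56.9, 45.3 to 71.9) and had a UMI in 26.2% of osteoblasts. Sost, the Wnt inhibitor that marks mature osteocytes, was at 20.8 against 0.579 CPM (ratio 35.9, 24.7 to 53.2). Its 100 UMIs lay in 16 osteoblasts, and 2 of these held 37 and 35. Without those 2 cells the ratio was 10.2. Of the 16 Sost cells, 14 also had Phex, 12 Dkk1, 11 Dmp1 and 4 Mepe, and 10 lay in the range over 5%. Fgf23, the phosphate hormone of osteocytes, had 0 UMIs in osteoblasts and 1 UMI in the comparison cells. Pdpn, of early embedding osteocytes, was at 47.6 against 67.6 CPM and Irx5 at 217 against 321 CPM, both within 2-fold. Capg (15.4 against 38.5 CPM) and Cd44 (2.29 against 7.08 CPM) were lower. A UMI of Dmp1, Phex and Mepe in the same cell was found in 28 of 351 osteoblasts.

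The signals by which osteoblasts control osteoclasts, the cells that resorb bone, were at unequal levels. Tnfsf11, the ligand RANKL that osteoclasts need, had 12 UMIs in all osteoblasts (2.50 against 1.36 CPM, ratio 1.83, and 2.06 with TMM scaling). Its decoy receptor Tnfrsf11b was at 153 against 89.4 CPM (ratio 1.71, 1.59 to 1.85), and Csf1, a survival factor for osteoclast precursors, at 16.2 against 15.8 CPM. Of 8 genes in this list none was at least 2-fold higher and 3 were lower: Il34, Cxcl12 and Wnt5a. Osteoclast markers themselves were near 0. Ocstamp, Dcstamp, Atp6v0d2 and Calcr had no UMI in osteoblasts, and Acp5 was at 1.25 CPM. Ctsk, a protease also made by connective tissue cells, was at 134 against 116 CPM.

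In the BMP pathway several ligands were higher in osteoblasts and no receptor was. Of 9 ligands measured, 4 were at least 2-fold higher and 3 lower. Bmp8a was at 50.1 against 1.36 CPM (ratio 36.8, 28.9 to 47.3). Bmp3, a member known to oppose bone formation, was at 74.0 against 4.21 CPM (ratio 17.6), and Bmp2, which induces bone, at 57.4 against 12.5 CPM (ratio 4.59). Bmp7 had a ratio of 2.84. Bmp4 was at 23.5 against 51.4 CPM (ratio 0.457, and 0.513 with TMM scaling), and with that scaling 1 ligand was lower. None of 6 receptor genes was at least 2-fold higher and 2 were lower (1 with TMM scaling). The receptor Bmpr1a was at 101 against 69.4 CPM (ratio 1.45). Of 7 classic target genes none was at least 2-fold higher, 2 were lower (Id1 and Id4) and 5 lay within 2-fold. Over all genes measured, 25.1% were lower. Id1 was at 145 against 839 CPM, 5.78-fold lower (5.36 to 6.23), and Id3 at 1286 against 2500 CPM (ratio 0.514). Of the inhibitors, Sostdc1 (1.66 against 88.2 CPM) and Fst (2.29 against 65.2 CPM) were lower. Bambi, a decoy receptor, was at 661 against 329 CPM (ratio 2.01, and 1.96 without the cell with most of its UMIs).

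In the Wnt pathway genes went both ways. Lrp4, the receptor that anchors sclerostin, was at 177 against 26.8 CPM (ratio 6.60, 6.08 to 7.16), and Lrp5, the co-receptor tied to bone mass, at 58.2 against 19.5 CPM (ratio 2.99). Of the 10 receptor genes measured, 6 were at least 2-fold lower, among them Fzd9 (16.6 against 76.3 CPM), and 3 were with TMM scaling, which moved Fzd1, Fzd2 and Fzd8 inside the fold. Lrp6, another Wnt co-receptor, was at 50.5 against 89.8 CPM (ratio 0.563). Of 11 inhibitors, 4 were higher and 5 lower (3 with TMM scaling). The higher ones were Dkk1 and Sost, above, Wif1, which binds Wnt ligands, at 393 against 96.4 CPM (ratio 4.07), and Frzb at 23.3 against 7.86 CPM (ratio 2.96). Sfrp2 was at 1.46 against 34.0 CPM, 23.3-fold lower. Of 7 target genes, 1 was higher and 2 were lower. Tcf7 was at 91.3 against 21.2 CPM (ratio 4.31), Lef1 at 146 against 141 CPM, Axin2 at 21.8 against 39.2 CPM and Nkd1 at 48.3 against 298 CPM. Among the ligands, Wnt5a was at 112 against 353 CPM, 3.16-fold lower, and Wnt7b was low but higher in osteoblasts (8.74 against 2.14 CPM).

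Of the hormone and growth factor receptors, 2 of 15 were at least 2-fold higher and 3 lower. Pth1r, the receptor for parathyroid hormone and its related peptide, was at 1385 against 101 CPM (ratio 13.6, 13.2 to 14.1), with a median of 1127 and a maximum of 6503 CPM per cell. Vdr, the vitamin D receptor, was at 34.1 against 3.33 CPM (ratio 10.2). The glucocorticoid receptor Nr3c1 was at 57.2 against 136 CPM, and Fgfr1 at 155 against 154 CPM. Alpl, Smpd3 and Pth1r had a UMI in the same cell in 306 of 351 osteoblasts (87.2%) and 591 comparison cells (11.2%). Secreted growth factors were mixed. Ostn, osteocrin, was at 40.3 against 2.23 CPM (ratio 18.1), Pdgfa at 186 against 44.5 CPM (ratio 4.17) and Tgfb1 at 67.0 against 18.1 CPM (ratio 3.70). Igf1 was at 93.4 against 180 CPM and Vegfa at 63.4 against 55.0 CPM. Of 10 genes of cell contact measured, 6 were at least 2-fold higher and none lower. Tmem119, a membrane protein that promotes osteoblast differentiation, was at 651 against 30.04 CPM (ratio 21.7). Gja1, the gap junction protein connexin 43, was at 174 against 16.7 CPM (ratio 10.4), Cadm1 at 677 against 92.8 CPM (ratio 7.29) and the cadherin Cdh2 at 180 against 27.6 CPM (ratio 6.52).

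Cartilage genes were for the most part lower, with exceptions. Of 19 measured, 11 were at least 2-fold lower and 4 higher (median log2 ratio -1.65). Sox9, the master factor of cartilage, was at 47.0 against 206 CPM, 4.37-fold lower, and Col9a3 at 404 against 2484 CPM, 6.15-fold lower. Col2a1, the main cartilage collagen, was at 5442 against 5189 CPM (ratio 1.05), with a UMI in 99.1% of osteoblasts, 90.5% of comparison cells and 70.9% of the Cdh5 cells. Col11a2 was at 1902 against 848 CPM (ratio 2.24). Acan, the cartilage proteoglycan, was at 23.5 against 35.5 CPM and Matn1 had 1 osteoblast UMI. Col10a1, the collagen of hypertrophic cartilage, had 0 UMIs in osteoblasts, while Ihh, a signal of prehypertrophic cartilage, was at 16.4 against 1.64 CPM (ratio 10.0) in 11.4% of osteoblasts.

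Coch was the exception among fibrocyte genes. It encodes cochlin, the abundant extracellular protein of the spiral ligament that is mutated in an inherited hearing loss. Coch was at 3294 CPM in osteoblasts and 541 CPM in comparison cells, a ratio of 6.09 (5.98 to 6.21). A UMI was found in 95.7% of osteoblasts, 55.7% of comparison cells and 25.5% of the Cdh5 cells, and the level per osteoblast had a median of 2209 and a maximum of 22795 CPM. Of the 15 genes in the fibrocyte list 13 were at least 2-fold lower, and 11 with TMM scaling. Otos was at 360 against 7048 CPM, 19.6-fold lower, Otor at 812 against 7798 CPM, 9.61-fold lower, and Emilin2 at 53.0 against 1040 CPM. Pou3f4, a factor of otic mesenchyme mutated in X-linked deafness, was at 342 against 334 CPM. A single osteoblast held 43.4% of the Otos UMIs.

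Outside the gene lists, the genes with the largest ratios at 100 CPM or more included Col22a1, a collagen of tissue junctions (186 against 2.91 CPM, ratio 63.8), and Sgms2, a sphingomyelin synthase mutated in a skeletal disease (811 against 21.4 CPM, ratio 37.9). Panx3, a channel protein of bone and cartilage, was at 276 against 8.41 CPM (ratio 32.9). Ptgis, the prostacyclin synthase, was at 588 against 26.3 CPM (ratio 22.3), and Prss35, a serine protease relative, at 391 against 15.2 CPM (ratio 25.6). Further genes of this kind were Fam78b, Lpar3, Ramp1, Ppfia2, Rerg and Nrgn, with ratios from 16.5 to 26.8. The genes furthest below belonged in part to other cell types of the cochlea. Moxd1 was at 1.87 against 110 CPM, 58.5-fold lower, Pou3f1, a factor of myelinating glia, 39.2-fold lower, and Clu, the secreted chaperone clusterin, 31.0-fold lower (22.9 against 709 CPM).

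Cell cycle genes were low. Of 24 measured, 16 were at least 2-fold lower and none was higher. After each cell was thinned to 2000 UMIs, 7 of 329 osteoblasts (2.13%, 0.860 to 4.33) had at least 2 UMIs of the cell cycle list, against 166 of 5129 comparison cells (3.24%, 2.77 to 3.76). The intervals cover counting error only. Unlike the osteoblasts, the comparison cells here include cells with UMIs of Cdh5, Epcam or Ptprc. After the same thinning the share was 8.94% in cells with at least 2 Cdh5 UMIs, 11.8% with Ptprc and 3.20% with Epcam. The part of such cells in the lower cell cycle values of osteoblasts was not tested. The 22 osteoblasts and 150 comparison cells with fewer UMIs were left out, and the unthinned shares were 28.2% and 28.9%. Mki67 had 7 UMIs and Top2a 17 in all osteoblasts, and 1 cell held 82.4% of the Top2a UMIs. Genes of dissociation stress were lower, 9 of 14 at least 2-fold, such as Fos (1421 against 3618 CPM) and Egr1 (410 against 1272 CPM).

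Osteoblasts were not uniform, and many genes followed the share of the rule genes. They were divided into ranges of 1 to 2% (86 cells), 2 to 5% (100 cells) and over 5% (165 cells). These are ranges of the measure that chose the cells, not cell types. The range over 5% was set beside that of 1 to 2%: of 6665 genes measured, 288 (4.32%) were at least 2-fold higher and 530 (7.95%) lower. Since the rule genes take 13.5% of the UMIs in the range over 5% and 1.42% in the lowest range, CPM of all other genes are depressed by that difference. Median depth was 10764, 14424 and 14415 UMIs from the lowest range to the highest.

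Of 19 matrix genes measured in these ranges, 9 were at least 2-fold higher over 5% than at 1 to 2% and 4 were lower, and of 7 osteocyte genes 4 were higher and none lower. Col1a1 was at 381, 1261 and 4470 CPM in the 3 ranges, a ratio of 11.7 (10.6 to 13.0) between the outer ones, and the number of Col1a1 UMIs per Col1a2 UMI went through 0.134, 0.395 and 0.732. Col5a2 was at 199, 372 and 1171 CPM and Col11a1, a fibrillar chain of cartilage and bone, at 680, 694 and 2755 CPM. Lox, the main collagen cross-linking oxidase, was at 14.8, 47.1 and 132 CPM (ratio 8.91). Slc13a5 was at 2.96, 14.1 and 143 CPM (ratio 48.2, 16.4 to 235). Of the osteocyte genes, Dmp1 was at 228, 160 and 872 CPM, Phex at 172, 164 and 440 CPM and Mepe at 17.7, 7.73 and 60.8 CPM. Bmp8a was at 12.8, 16.9 and 86.1 CPM and Gja1 at 53.2, 130 and 251 CPM. The rule genes themselves were unevenly balanced: Ibsp had 3.96, 1.64 and 0.673 UMIs per UMI of Bglap and Bglap2 in the 3 ranges.

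The lineage factors and the mineral enzymes varied little over the same ranges. Sp7 was at 210, 313 and 324 CPM, Alpl at 560, 711 and 870 CPM, Smpd3 at 4419, 5405 and 6398 CPM and Pth1r at 1254, 1720 and 1241 CPM. Runx2 had the opposite order, at 457, 346 and 236 CPM, 1.94-fold lower in the highest range than in the lowest. Ifitm5 was at 1031, 2657 and 2651 CPM, so that its step lay between the lowest range and the others.

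Several growth factor and connective tissue genes were lower at a high share. Tgfb2, a growth factor of bone and mesenchyme, was at 335, 73.8 and 6.75 CPM, 49.6-fold lower (30.1 to 87.8) in the highest range, and had a UMI in 55 of 86 cells of the lowest range and 11 of 165 of the highest. Gdf10, a BMP family member, was at 544, 407 and 88.2 CPM, Igf1 at 229, 99.1 and 32.1 CPM and the Wnt-dependent factor Lef1 at 290, 189 and 59.1 CPM. Mgp was at 806, 266 and 111 CPM and Col3a1 at 505, 309 and 96.6 CPM. The cartilage collagen Col9a3 was at 919, 452 and 154 CPM, and the stress gene Jun at 2206, 1140 and 523 CPM. Fibrocyte genes went both ways. Of 10 measured in these ranges, 3 were at least 2-fold lower over 5% than at 1 to 2%, Otor and Emilin2 among them, and 2 were higher, Otos and Car3. Otor was at 1347, 1376 and 243 CPM. The part of other cells' RNA in the differences between ranges was not tested. Haemoglobin moved too: Hbb-bs was at 2975, 35.8 and 35.9 CPM, but 1 cell of the lowest range held 77.8% of its osteoblast UMIs.

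**Figure D3:**
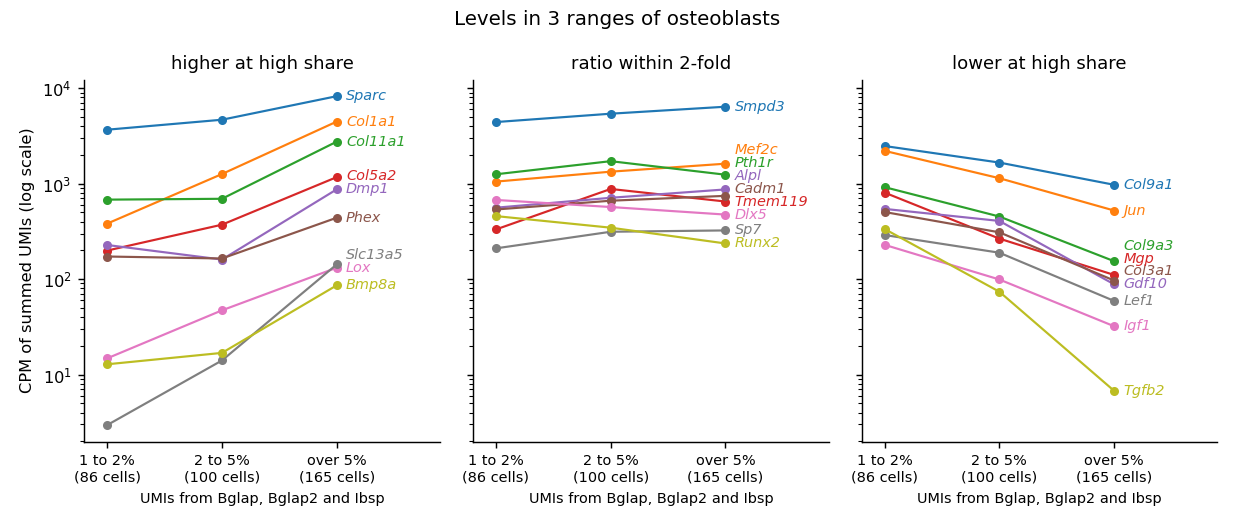
CPM of summed UMIs (y axis, log scale) in osteoblasts with 1 to 2%, 2 to 5% and over 5% of UMIs from Bglap, Bglap2 and Ibsp (x axis), with 1 line per gene. Col1a1 climbs from 381 to 4470 CPM, Sp7 and Runx2 stay within 2-fold, and Tgfb2 drops from 335 to 6.75 CPM.

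Cell by cell, the rank correlation with the rule share was 0.87 for Bglap3, 0.74 for Col5a2, 0.72 for Sparc and 0.66 for Col22a1 over the 351 osteoblasts. It was -0.58 for Gdf10, -0.52 for Lef1 and -0.27 for Runx2. Reads of Bglap3 cannot be fully told from those of Bglap and Bglap2, which are part of the share. Its value is therefore not independent of the rule. All cells come from 1 library and share its depth and scaling, so these are descriptions.

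**Figure D4:**
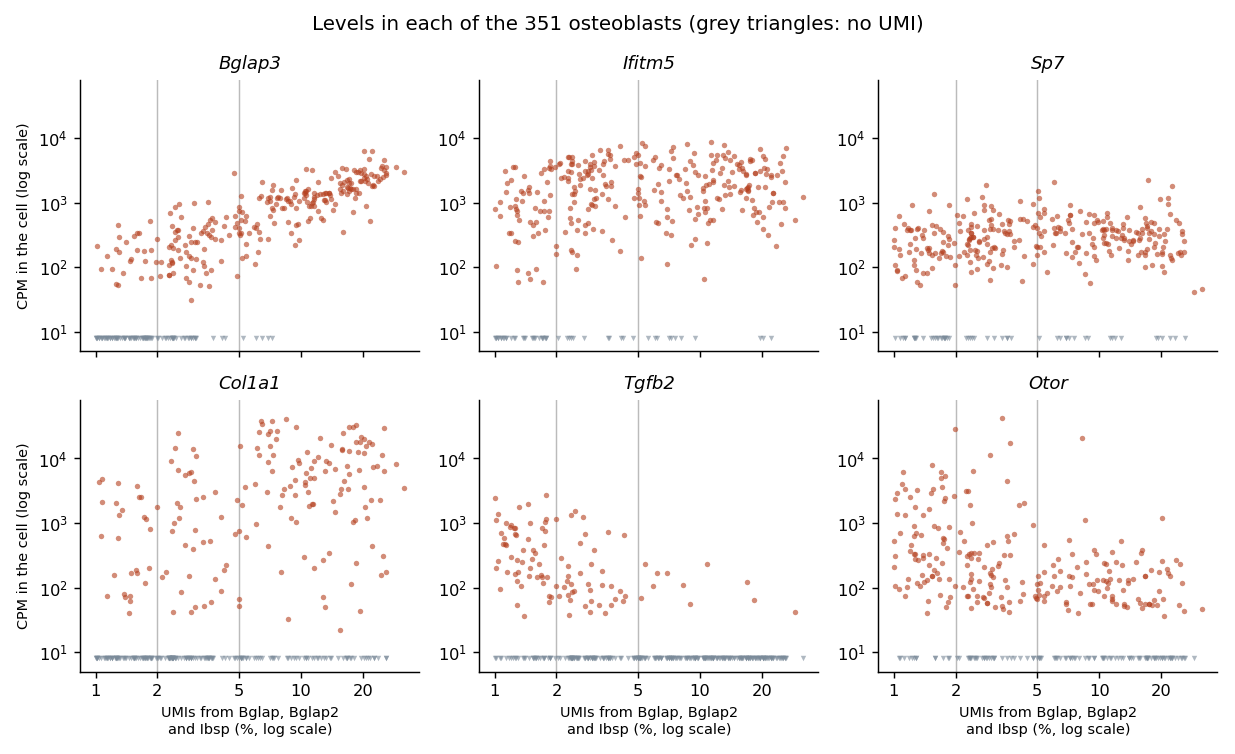
CPM per cell (y axis, log scale) against the share of UMIs from Bglap, Bglap2 and Ibsp (x axis, percent, log scale) for each of the 351 osteoblasts, with cells without a UMI as grey triangles near the lower edge and grey lines at 2% and 5%. Bglap3 climbs with the share, subject to the likeness of its reads to those of Bglap and Bglap2. Sp7 and Ifitm5 spread over the whole range, Col1a1 is at 0 in 172 cells, and Tgfb2 is found mostly at the low end.

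Clustering of the 351 cells without the rule genes gave 5 clusters, which are named only by number and leading genes. Cluster 1 (54 cells, led by Otor and Otos) and cluster 2 (33 cells, led by Mmp13 and Spp1) had median rule shares of 1.70% and 2.20%. Few cells carried the leading genes of cluster 2: Mmp13 had a UMI in 18.2% of them, and 4 osteoblasts held 76.8% of all Spp1 UMIs. Cluster 3 (108 cells, led by Hbb-bs and Ndnf) had a median of 2.72%. Ndnf had a UMI in 84.3% of its cells and Hbb-bs in 39.8%, and 1 osteoblast held 77.8% of all osteoblast Hbb-bs UMIs. Cluster 4 (44 cells, led by Cth and Nrtn) and cluster 5 (112 cells, led by Slc13a5 and Col1a1) had medians of 8.28% and 13.5%. Sp7 was at 184, 133, 342, 348 and 317 CPM in clusters 1 to 5 and Runx2 at 333, 425, 342, 264 and 274 CPM, so all 5 carried both lineage factors. Of the cells predicted as doublets, 12 were in cluster 1 (22.2% of it), 4 in cluster 2, 1 each in clusters 3 and 4 and 0 in cluster 5. Without cluster 1, 651 genes were at least 2-fold higher in osteoblasts, 607 of them among the 625 above, and 3924 were lower.

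The same rule found no cell at E15: 0 of 2838 cells in replicate 1 and 0 of 3537 in replicate 2, which allow shares of up to 0.106% and 0.0848% as 3 cells of the total, or 0.130% and 0.104% by the exact binomial interval used above. The highest share of the rule genes in any E15 cell was 0.109% and 0.117%. Over all cells, Ibsp had 97 and 114 UMIs, Bglap 9 and 8, and Bglap2 0 and 1. Bone genes were therefore compared between the ages in all cells with at least 3 UMIs of Col1a2, of which there were 1428 and 1608 at E15 and 5610 at P7. Age cannot be told apart from library here, since P7 is 1 library, counted with another software version and a list of 28692 genes against 32285.

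Of 14735 genes measured in these Col1a2 cells, 3466 (23.5%) were at least 2-fold higher at P7 than the E15 mean and 2156 (14.6%) at least 2-fold lower. Of 54 bone genes measured this way over the transcription factor, matrix, mineralization and osteocyte lists, 38 were at least 2-fold higher. Sp7 was at 1.51 and 1.12 CPM at E15 (1.32 ± 0.28, SD, n = 2) and 39.8 CPM at P7. Runx2 was at 7.86 and 8.58 CPM (8.22 ± 0.51) and 73.9 CPM at P7. Ifitm5 was at 0.967 and 1.07 CPM and then 187 CPM. The E15 libraries lay close to each other on each of these, far from P7. Smpd3 was at 1.49 ± 0.39 CPM at E15 and 762 CPM at P7, Alpl at 3.75 ± 0.0084 and 109 CPM, and Phex at 0.224 ± 0.040 and 91.9 CPM. Not every bone gene was higher. Twist1 was at 273 ± 14.5 CPM at E15 and 134 CPM at P7, Col5a1 at 148 ± 2.64 and 58.3 CPM, and Col3a1 at 1248 ± 46.7 and 837 CPM. In the transcription factor list 9 of 15 were higher and 3 lower (Twist1, Twist2 and Zfp521), in mineralization 10 of 12 were higher, and in the osteocyte list 7 of 9.

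Levels above E15 were also found outside the cells chosen as osteoblasts. Of the 5279 comparison cells, 304 had at least 0.2% of UMIs from the rule genes, 36 of them at least 1%. The part of these cells and of background transcripts in the values below was not tested. In the comparison cells alone, Smpd3 was at 434 CPM, Dlx5 at 68.9 CPM against 0.384 ± 0.0082 at E15, Phex at 77.6 CPM and Kazald1, a secreted protein of bone, at 679 CPM against 12.8 ± 1.14. Pth1r was already present at E15 at 45.1 ± 4.93 CPM, and was at 101 CPM in the comparison cells and 1385 CPM in the osteoblasts.

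**Figure D5:**
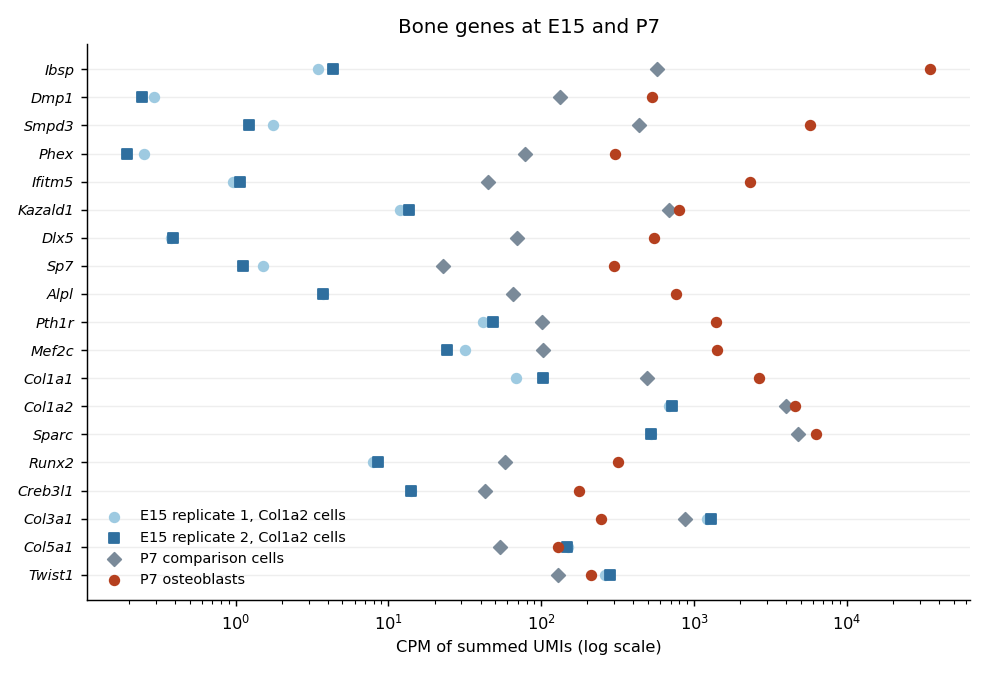
CPM of summed UMIs (x axis, log scale) of bone genes in the Col1a2 cells of the 2 E15 libraries, the P7 comparison cells and the P7 osteoblasts, with 1 point per group. The E15 points lie close together and below both P7 groups for most genes, such as Sp7 and Smpd3, and above the comparison cells for Twist1, Col5a1 and Col3a1.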

How the data were processed

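Transcripts of single cells were captured in droplets and sequenced from their 3' ends (Chromium, kit version 3, per the labels' protocols). The values are UMI counts per gene and cell, deposited by the authors as filtered matrices. Cell Ranger made them, version 3.1.0 for P7 and 6.1.2 for E15 per the file headers, and 6.1.2 for all per the submitters' processing notes, which name GRCm38 (mm10). The libraries held 8141 (P7), 3234 and 3897 (E15) barcodes and 93829443, 46530036 and 44304364 UMIs, with medians of 10325, 13936.5 and 10398 per barcode.

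Cells with at least 500 genes and at most 20% mitochondrial UMIs were kept. UMIs were summed over each group and scaled to CPM. A gene with at least 50 UMIs over both sums was called at a ratio of 2 or more, or 0.5 or less, with exact conditional binomial 95% intervals. Genes with 20 CPM or more were named by ratio, up to 8 past and 4 within the fold per list, with all osteoblast and osteocyte genes and 12 outside the lists on each side at 100 CPM or more. Other genes named (such as Phospho1, Mmp13, Slc20a2, Wnt7b and those given by range or age) were chosen after their values were seen. The members and lists were chosen with earlier results of these data known. Doublets were scored with Scrublet in scanpy 1.11.5 and kept; its own threshold called 3 cells, so the 422 highest scores stood for doublets in the values given and in the alternative. Clusters used 1500 genes, 15 components and 12 neighbours at resolution 0.6. Python 3.11.15 and scipy 1.17.1 were used, and the procedure was tested on simulated counts. A few genes and the values that need them are not reported here.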

Additional observations from a re-analysis of the deposited data

How the results depend on the processing

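The osteoblast share of P7 cells (4.83%) was 3.65% with a limit of 2% of UMIs, 6.24% with 0.5% and 4.12% without the cluster led by Otor and Otos. The 625 higher genes became 1314 with no minimum of UMIs and 214 at a fold of 4. The 3580 lower genes became 8295 with no minimum, 2261 at 200 UMIs and 2053 at a fold of 4. The share of cells with cell cycle UMIs was 4.82% after thinning to 4000 UMIs, against 7.54% of comparison cells. Of calls in either direction 14.9% were higher, and 19.7% with TMM scaling. The ratio of Spp1 was 0.913 without its 4 highest cells and that of Sost was 10.2 without its 2 highest, both chosen after seeing the data, as were the setting without the Otor cluster, the comparison cells under 0.2%, the interval rule and the calls of all list genes by scaling. Other scalings multiply every ratio by 1 factor, 1.08 without the rule genes in the total and 1.12 with TMM. Over all list genes, 14 and 17 lower calls then moved inside the fold, 4 and 9 genes became higher, and no higher call was lost; the list counts this moved by over 1.5 times stand beside them. The lower calls lost include Car3 (0.481, then 0.521 and 0.539), Enpp1 and Fzd2, and with TMM also Bmp4. For 62 called genes recomputed under 16 settings, Spp1 and Sost without their highest cells aside, Car3 was the 1 gene to cross the fold, also at 0.557 with a limit of 2% and 0.504 as a mean of cells. The settings on the minimum of UMIs, the fold of 4 and the interval rule do not enter a ratio. They are among the 16 but could not move a gene across the fold. The count of bone genes higher at P7 was 39 to 39 when either E15 library was left out. No paired analysis was possible because P7 is 1 library without a number. With 1 P7 library no value among P7 cells carries a replicate error.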

Other observations

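Sp7 was also found outside the cells chosen as osteoblasts. At P7, 1156 of 7262 cells had a UMI of Sp7, of which 297 were among the 351 osteoblasts and 859 were among the other 6911 cells (12.4% of them, median 13099 UMIs), against 10.7% of the cells with at least 2 Cdh5 UMIs (median 12343.5 UMIs). Those 859 cells together had 191 CPM of Runx2, 211 CPM of Ifitm5, 1584 CPM of Bglap and 2313 CPM of Ibsp. Of them, 201 cells with at least 0.2% of UMIs from Bglap, Bglap2 and Ibsp held 96.3% of these transcripts, and the other 658 had 139 CPM of Runx2, 20.05 CPM of Ifitm5, 30.7 CPM of Bglap and 192 CPM of Ibsp. This split was chosen after seeing the data. At E15, Sp7 had a UMI in 52 of 2838 cells (1.83%) and 40 of 3537 cells (1.13%). These E15 cells had Runx2 at 4.34 and 4.69 CPM, from 5 and 3 UMIs, and no UMI of Bglap, Bglap2 or Ibsp.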
